A study of Mus musculus with 4 samples.

Results

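The genes described here are 7 genes of thyroid hormone signaling: Slco1c1, Dio2, Crym, Thra, Thrb, Klf9 and Hr. They were picked by name for their place in the pathway, without a rule on their values but with earlier results of these data known. All 7 were among the 12700 genes of the count table. RNA-seq had been run on a SOLiD 3 Plus instrument with brain RNA of C57BL/6 mice aged 9 months. The Ids-ko mice (genotype Ids-/-, coded H) lack iduronate 2-sulfatase and are the mouse model of mucopolysaccharidosis type II, or Hunter syndrome, and their wild type littermates (coded WT) were the controls. Each brain was dissected into the cerebral cortex (Cx) and an area termed M, which the methods describe as midbrain, diencephalon and hippocampus, with the striatum included. RNA from 7 mice per genotype was pooled, so the 4 conditions (CxH and MH, CxWT and MWT) were 1 library each, and by their labels CxH and MH came from the same mice, as did CxWT and MWT. No group thus had a replicate, and every error given for a single library or a pair of libraries covers counting error only.

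Thyroid hormone reaches the brain mainly as the prohormone T4 and in part as the active hormone T3. Membrane transporters carry it across the blood-brain barrier and into glia and neurons, the deiodinase DIO2 of astrocytes and tanycytes converts T4 to T3, and the deiodinase DIO3 of neurons inactivates both. In the nucleus T3 binds the receptors TRα (gene Thra) and TRβ (gene Thrb), which sit on DNA mostly as partners of retinoid X receptors and switch between corepressors and coactivators when the hormone binds. In the developing and adult brain this pathway is known for its part in neuronal differentiation, myelination and cortical gene expression.

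The libraries did not all follow their labels. Ids, the disrupted gene (chromosome X, 67596244 to 67618260 on mm9), had 5211 reads in CxH and 4496 in the library labelled MWT, against 11890 in CxWT and 13752 in the library labelled MH. Scaled to RPM by the aligned reads of each library, these were 135 and 155 against 354 and 368, so Ids was low in CxH and in the library labelled MWT and high in the other pair. The log2 ratio was -1.39 ± 0.024 (counting SE) for CxH vs. CxWT and 1.24 ± 0.025 for MH vs. MWT. The counts cover the whole gene, and the deleted part of Ids is not given in the sources used here. A gene was called between a pair of libraries at a log2 ratio of RPM of at least 0.7 in size with a p-value under 0.05 by likelihood ratio on Poisson counts, a test that compares the reads of 2 libraries and not the conditions. Markers of the dissected areas split the libraries another way. The 12 markers of cortical excitatory neurons summed to 1773 RPM in CxH and 1648 in MH, against 356 in CxWT and 305 in MWT, and 9 of the 12 were called higher in CxH vs. CxWT and 9 in MH vs. MWT. The 15 measured markers of midbrain and diencephalon, of 16 listed, summed to 27.1 and 37.3 RPM in CxH and MH, against 494 in CxWT and 429.8 in MWT, with 15 called lower in CxH vs. CxWT and 14 lower in MH vs. MWT. En1, a transcription factor of midbrain dopamine neurons, had 1 read in CxH and 0 in MH, against 273 in CxWT and 126 in MWT. Cortical markers were therefore high in CxH and in the library labelled MH, and midbrain and diencephalon markers were high in the library labelled CxWT and in MWT. Striatum and hippocampus belong to M by the methods, yet their markers also had higher sums in CxH and MH. Striatal markers summed to 952 and 771 RPM there, against 370.5 in CxWT and 375 in MWT. Hippocampal markers summed to 104 and 105 RPM, against 87.8 and 62.8. Single markers that went the other way are counted below. Both Ids and the area markers thus differed in CxH vs. CxWT and in MH vs. MWT, so genotype and area cannot be told apart in these ratios. Between CxH and MH, and between CxWT and MWT, Ids differed (log2 ratios of -1.44 ± 0.023 and 1.19 ± 0.025) while the cortical markers had a median log2 ratio of 0.11 and 0.26. In the mixed pairs, Ids had -0.20 ± 0.029 for CxH vs. MWT and 0.06 ± 0.018 for MH vs. CxWT, and the cortical markers a median of 3.56 and 2.88. Ratios of the 7 genes are therefore given for all 6 pairs, those of other pathway genes for CxH vs. CxWT and MH vs. MWT, and H and WT name the labels of libraries only. Reads on genes ranged from 16380080 in MWT to 23475080 in CxH, or 56.6% to 61.0% of aligned reads.

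**Figure D1:**
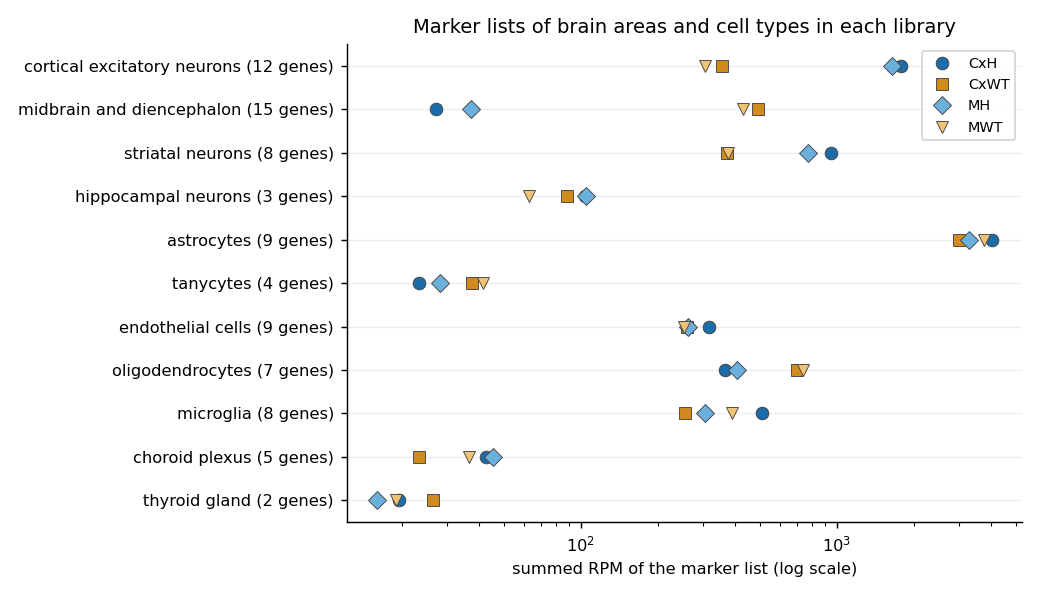
Summed RPM (log axis) of 11 lists of marker genes, with 1 point per library and the number of measured genes in parentheses. CxH and MH lie together for cortical, striatal, midbrain and diencephalon, and oligodendrocyte markers, away from CxWT and MWT. For cortical excitatory neurons they stand at 1773 and 1648 RPM against 356 and 305.

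Positions on mm9 (GENCODE vM1) place the genes on 6 chromosomes. Slco1c1 (Entrez 58807) spans chr6:141472907-141518241 on the plus strand, Dio2 (13371) chr12:91962994-91976878 on the minus strand and Crym (12971) chr7:127329894-127345625 on the minus strand. Of the receptors, Thra (21833) spans chr11:98601952-98630320 and Thrb (21834) chr14:18493474-18870602, both on the plus strand. Klf9 (16601) spans chr19:23215716-23241401 and Hr (15460) chr14:70952019-70973355, also on the plus strand. The last 1075 bases of Thra, from 98629246 to 98630320, overlap the end of Nr1d1, which is transcribed from the other strand. Whether the counting used strand is not given in the sources used here, so reads of Thra and Nr1d1 in this stretch cannot be told apart, and the Thra isoforms that differ at their 3′ ends were counted together.

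Promoter sequence is shown for Dio2 and Thrb, a deiodinase and a receptor gene that were called in the same 4 pairs of libraries. RefSeq (GRCm38.p6) entries matched 4 of the 7 genes (Dio2, Klf9, Slco1c1 and Thrb, which has 2 starts). The 250 bases before each start were searched on both strands for AGGTCA, the core hexamer bound by nuclear receptors, for its direct repeat with a spacer of 4 bases, which thyroid hormone receptors can bind, for the cAMP response element TGACGTCA and for TATAAA. None of these motifs overlaps another in the windows shown. Capitals mark matches, and sequences run 5′ to 3′ on the strand of the gene.
Dio2, chr12:90739039-90739288, minus strand: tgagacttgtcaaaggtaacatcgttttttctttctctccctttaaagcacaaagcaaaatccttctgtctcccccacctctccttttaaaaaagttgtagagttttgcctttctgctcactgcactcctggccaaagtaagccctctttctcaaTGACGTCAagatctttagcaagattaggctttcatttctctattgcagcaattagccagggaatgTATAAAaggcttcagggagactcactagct
Thrb, upstream start, chr14:17660710-17660959, plus strand: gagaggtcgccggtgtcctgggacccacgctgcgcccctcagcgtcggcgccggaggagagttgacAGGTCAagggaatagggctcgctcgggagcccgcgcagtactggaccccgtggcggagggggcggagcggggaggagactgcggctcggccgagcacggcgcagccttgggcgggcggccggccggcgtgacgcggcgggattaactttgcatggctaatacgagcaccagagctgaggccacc
Thrb, other start, chr14:17981394-17981643, plus strand: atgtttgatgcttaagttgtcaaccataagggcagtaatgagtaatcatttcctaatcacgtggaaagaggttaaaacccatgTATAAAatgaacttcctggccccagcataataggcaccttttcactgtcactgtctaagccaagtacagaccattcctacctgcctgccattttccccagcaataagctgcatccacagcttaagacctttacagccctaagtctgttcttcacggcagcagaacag
In Dio2, TGACGTCA begins at position -95 and TATAAA at position -30 from the start. The upstream start of Thrb holds AGGTCA at position -184 and the other start TATAAA at position -167. Of 32851 promoter windows of the same length, 14.0% held AGGTCA, 12.4% TATAAA, 1.55% TGACGTCA and 0.0152% the direct repeat, which was in none of the 5 windows of these genes. The windows of Slco1c1 and Klf9 held none of these letters. Matches describe the sequence only.

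All 7 genes were well measured, with at least 466 reads in every library. Per kilobase of transcript (RPKM, or RPM divided by transcript length), Thra was the highest of them, at 207 in CxH and 200.2 in MH against 124 in CxWT and 88.8 in MWT. Crym was next in CxH and MH, at 40.6 and 39.0 RPKM, but below Slco1c1 and Klf9 in CxWT and MWT, at 11.3 and 13.5. Klf9 ranged from 18.8 to 30.1 RPKM, Slco1c1 from 21.9 to 31.0 and Dio2 from 9.29 to 20.7. Thrb, from 3.82 to 6.51 RPKM, and Hr, from 2.87 to 5.98, were the lowest. In CxH the 95% intervals of Klf9 (29.1 to 31.1 RPKM) and Slco1c1 (27.4 to 29.5) overlapped, as did those of Thrb (6.19 to 6.84) and Hr (5.65 to 6.31), so these neighbours in the order stood close together. The other neighbours in CxH had intervals that did not overlap. Across the libraries the highest level was 3.59-fold the lowest for Crym, 2.33-fold for Thra, 2.23-fold for Dio2, 2.08-fold for Hr, 1.70-fold for Thrb, 1.60-fold for Klf9 and 1.42-fold for Slco1c1.

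**Figure D2:**
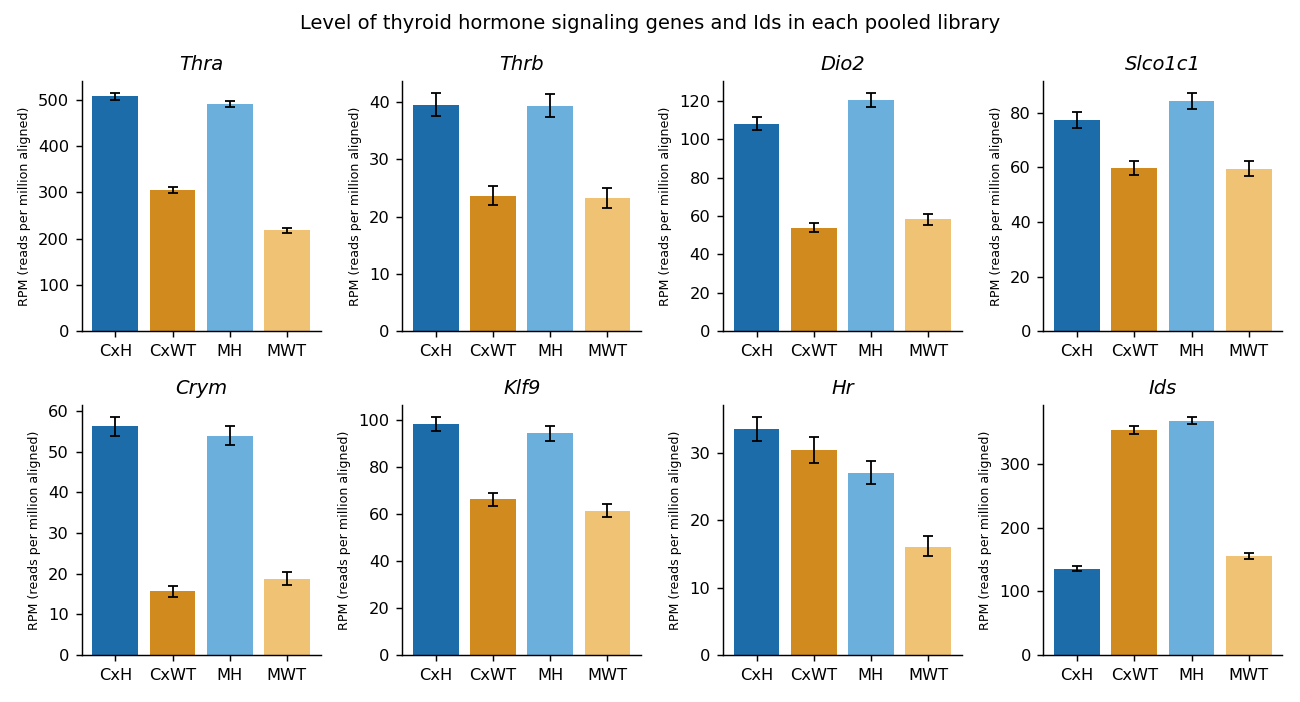
Level of each gene and of Ids (RPM, linear axis from 0) in the 4 pooled libraries, with 1 bar per library and error bars for the exact 95% counting interval. Thra, Thrb, Dio2, Slco1c1, Crym and Klf9 stand higher in CxH and MH than in CxWT and MWT, Hr is lowest in MWT, and Ids is high in CxWT and MH.

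Of the 7 genes, 6 were higher in both libraries labelled H than in both labelled WT, and the exception was Hr. The share of all genes with this order was not counted, so whether 6 of 7 is many cannot be told. In CxH vs. CxWT 4 of the 7 genes were called (Crym, Dio2, Thra and Thrb), all up-regulated, where 20.9% of all 12700 genes were called, 9.46% up-regulated and 11.5% down-regulated. In MH vs. MWT 5 were called, the same 4 and Hr, all up-regulated, against 25.0% of all genes called, 12.3% up-regulated and 12.7% down-regulated. The median log2 ratio of the 7 genes was 0.73 in CxH vs. CxWT and 0.76 in MH vs. MWT, while that of all genes was -0.09 and -0.07. Fewer calls were made between the libraries that shared a genotype label. Between CxH and MH 0 of 7 were called, and of all genes 3.50% (2.43% higher in CxH and 1.06% lower). Between CxWT and MWT 1 was called, Hr, which was higher in CxWT, and of all genes 7.54% (5.43% higher in CxWT and 2.11% lower). Of the remaining pairs, CxH vs. MWT, both low in Ids, gave 5 up-regulated calls (Crym, Dio2, Hr, Thra and Thrb, with 30.7% of all genes called, 15.6% up-regulated and 15.1% down-regulated). MH vs. CxWT, both high in Ids, gave 3 (Crym, Dio2 and Thrb, with 15.3% of all genes called, 6.41% up-regulated and 8.89% down-regulated). The pairs share libraries and are not independent of each other. In bulk tissue, a smaller number of cells of a type and less RNA per cell cannot be told apart.

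**Figure D3:**
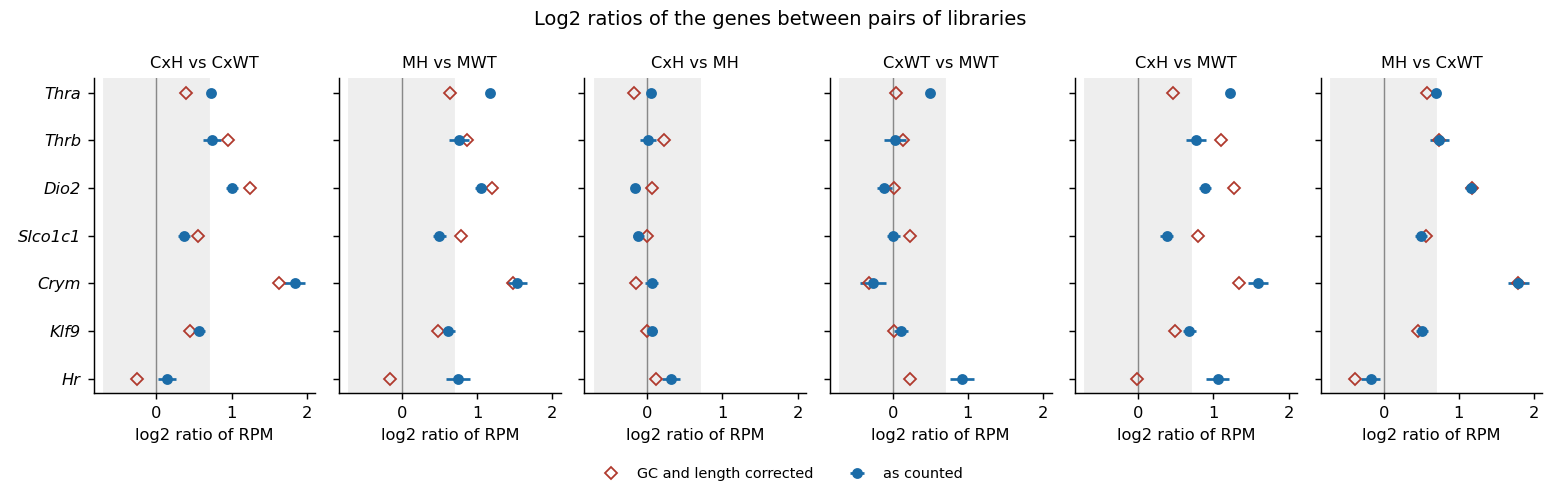
Log2 ratio of RPM for each gene in the 6 pairs of libraries. Filled points are the ratios as counted with bars for the 95% counting interval, open diamonds the ratios corrected for GC content and transcript length, and grey the range under 0.7 in size. Crym, Dio2 and Thrb lie right of the grey band in the 4 panels that set a library high in cortical markers over a library low in them, and Hr moves to values below 0 after correction in these 4 panels.

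Slco1c1 encodes OATP1C1, the T4 transporter of brain capillaries and astrocytes. Its level was 77.3 RPM (95% interval by Clopper and Pearson's exact method 74.6 to 80.2) in CxH and 84.3 (81.3 to 87.3) in MH, against 59.7 (57.1 to 62.4) in CxWT and 59.5 (56.7 to 62.4) in MWT. The libraries labelled H were both higher than both labelled WT, with no overlap of intervals between them, and CxWT and MWT did not differ beyond counting error. This gave a log2 ratio of 0.37 ± 0.042 in CxH vs. CxWT and 0.50 ± 0.043 in MH vs. MWT, under the threshold of 0.7 in both, and likewise in the mixed pairs (0.50 ± 0.041 in MH vs. CxWT and 0.38 ± 0.044 in CxH vs. MWT). Between libraries with the same genotype label it was -0.12 ± 0.037 (CxH over MH) and 0.01 ± 0.047 (CxWT over MWT). After correction for GC content and length Slco1c1 was called in MH vs. MWT (0.79) and CxH vs. MWT (0.80). Of all genes, 19.3% and 18.6% had a ratio as high or higher in CxH vs. CxWT and MH vs. MWT. Endothelial markers (9 genes) summed to 316 RPM in CxH and 262 in MH, against 260.0 in CxWT and 253 in MWT, with 2 of 9 called higher in CxH vs. CxWT and 1 lower in MH vs. MWT. All 9 had reads in each library, and their part in the level of Slco1c1 was not tested.

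Dio2, the activating deiodinase, had 108 RPM (105 to 111) in CxH and 121 (117 to 124) in MH, against 54.0 (51.5 to 56.5) in CxWT and 58.3 (55.6 to 61.2) in MWT. Both libraries labelled H thus had about the same excess over those labelled WT, and MH was the highest of all. Dio2 was up-regulated in CxH vs. CxWT (log2 ratio 1.0 ± 0.041) and in MH vs. MWT (1.05 ± 0.041, or 2.07-fold). The log2 ratio was -0.16 ± 0.031 between CxH and MH and -0.11 ± 0.049 between CxWT and MWT, and in the mixed pairs 1.16 ± 0.040 for MH vs. CxWT and 0.89 ± 0.042 for CxH vs. MWT. Only 5.50% and 6.24% of all genes had a ratio as high in CxH vs. CxWT and MH vs. MWT. Dio2 is known from astrocytes and from tanycytes, the glia that line the third ventricle. The 9 astrocyte markers summed to 4027 RPM in CxH and 3269 in MH, against 3011 in CxWT and 3744 in MWT, with 2 of 9 called higher and 1 lower in CxH vs. CxWT and 3 lower in MH vs. MWT. The 4 measured tanycyte markers, of 6 listed, summed to 23.3 RPM in CxH and 28.1 in MH, against 37.4 in CxWT and 41.5 in MWT. This sum was lower in the libraries where Dio2 was higher, with 2 of 4 markers called lower in CxH vs. CxWT and 3 in MH vs. MWT. The other marker in MH vs. MWT, Col23a1, had ratios above 0 (0.19 ± 0.11 and 0.65 ± 0.11, not called). All these markers had reads in every library, and their part in the level of Dio2 was not tested.

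Crym encodes μ-crystallin, a cytosolic protein that binds T3. Crym stood at 56.2 RPM (53.8 to 58.6) in CxH and 53.9 (51.6 to 56.3) in MH, against 15.6 (14.3 to 17.0) in CxWT and 18.7 (17.1 to 20.3) in MWT. This was the widest spread of the 7 genes, with CxH and MH overlapping in their intervals and far above the other pair. Its log2 ratio was 1.84 ± 0.070 in CxH vs. CxWT (3.59-fold) and 1.53 ± 0.070 in MH vs. MWT (2.89-fold), and 1.37% and 2.76% of all genes had a ratio as high. Between libraries with the same genotype label it was 0.06 ± 0.045 (CxH over MH) and -0.26 ± 0.088 (CxWT over MWT). In MH vs. CxWT, where Ids differed by only 0.06 ± 0.018, the log2 ratio of Crym was 1.79 ± 0.071, and in CxH vs. MWT it was 1.59 ± 0.069. The level of Crym moved with the cortical excitatory neuron markers, whose summed RPM is given above and whose median log2 ratio was 3.09 in CxH vs. CxWT, 3.38 in MH vs. MWT and 2.88 in MH vs. CxWT. It also moved with the 8 striatal markers, which summed to 952 RPM in CxH and 771 in MH, against 370.5 in CxWT and 375 in MWT, with 6 of 8 called higher in CxH vs. CxWT, and 6 higher and 1 lower in MH vs. MWT. Thra, Thrb, Dio2, Slco1c1 and Klf9 were also higher in CxH and MH than in CxWT and MWT, so this split was not particular to Crym. None of the cortical or striatal markers was at 0 in any library, and their part in the level of Crym was not tested.

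The receptor gene Thra had 507 RPM (500.3 to 515) in CxH and 491 (484 to 498) in MH, against 305 (299 to 311) in CxWT and 218 (212 to 223) in MWT. No pair of these intervals overlapped, and MWT was the lowest. Thra was up-regulated in CxH vs. CxWT (log2 ratio 0.73 ± 0.018) and MH vs. MWT (1.17 ± 0.021). Correction for GC content and transcript length ended both calls (0.40 and 0.64), and the call in CxH vs. CxWT was also lost with a threshold of 1 or an assumed biological coefficient of variation (BCV) of 0.2. In the mixed pairs the ratio was 0.69 ± 0.018 for MH vs. CxWT, just under the threshold, and 1.22 ± 0.021 for CxH vs. MWT. With other scalings Thra was called in MH vs. CxWT too, at 0.72 by column totals, 0.79 by TMM and 0.80 by DESeq2 size factors, while the correction for GC content and length took it to 0.58 there and to 0.46 in CxH vs. MWT, where it ended the call. Between CxH and MH it was 0.05 ± 0.015, and between CxWT and MWT 0.49 ± 0.023. Its antisense neighbour Nr1d1, the circadian repressor REV-ERBα, had 161 RPM in CxH and 151 in MH, against 109.9 in CxWT and 65.0 in MWT. Nr1d1 thus had the same order of libraries, with log2 ratios of 0.55 ± 0.030 in CxH vs. CxWT (not called) and 1.22 ± 0.038 in MH vs. MWT. For each read of Nr1d1 there were 3.15 reads of Thra in CxH and 3.24 in MH, against 2.77 in CxWT and 3.35 in MWT.

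Thrb, the other receptor gene, had 39.6 RPM (37.6 to 41.6) in CxH and 39.4 (37.4 to 41.4) in MH, against 23.6 (22.0 to 25.4) in CxWT and 23.2 (21.5 to 25.0) in MWT. It formed 2 levels, CxH with MH and CxWT with MWT, and within each level the intervals overlapped. Its log2 ratio was 0.74 ± 0.063 in CxH vs. CxWT and 0.76 ± 0.067 in MH vs. MWT, both called but within 1 counting SE of the threshold, and neither call held with a BCV of 0.2 or a threshold of 1. In the mixed pairs it was 0.74 ± 0.064 (MH vs. CxWT) and 0.77 ± 0.067 (CxH vs. MWT), and between libraries with the same genotype label 0.01 ± 0.053 and 0.03 ± 0.076. Per kilobase, the level of Thra was 31.8-fold that of Thrb in CxH and 30.9-fold in MH, 32.0-fold in CxWT and 23.3-fold in MWT.

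Klf9 and Hr are genes that T3 is known to induce in the brain. Klf9, a zinc finger transcription factor, had 98.2 RPM (95.1 to 101) in CxH and 94.2 (91.2 to 97.4) in MH, against 66.2 (63.5 to 69.1) in CxWT and 61.3 (58.5 to 64.2) in MWT. Its levels formed the same pairs as those of Thrb, with overlapping intervals within each. In log2 terms the ratio was 0.57 ± 0.039 in CxH vs. CxWT and 0.62 ± 0.042 in MH vs. MWT, under the threshold in both, and reached 0.68 ± 0.042 in CxH vs. MWT, where scaling by TMM or DESeq2 size factors gave 0.72, a call. It was 0.51 ± 0.039 in MH vs. CxWT, 0.06 ± 0.034 for CxH over MH and 0.11 ± 0.046 for CxWT over MWT.

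Hr, the hairless corepressor that binds thyroid hormone receptors, had 33.5 RPM (31.7 to 35.4) in CxH, 27.1 (25.4 to 28.8) in MH, 30.4 (28.6 to 32.3) in CxWT and 16.1 (14.7 to 17.6) in MWT. Its intervals overlapped between CxH and CxWT and between CxWT and MH, and MWT alone stood apart. The log2 ratio was 0.14 ± 0.060 in CxH vs. CxWT and 0.75 ± 0.081 in MH vs. MWT. Between CxWT and MWT it was 0.92 ± 0.081, with -0.17 ± 0.064 for MH vs. CxWT and 1.06 ± 0.078 for CxH vs. MWT, so each pair in which Hr was called held MWT. Between CxH and MH it was 0.31 ± 0.061. None of the 3 calls of Hr held once GC content and length were corrected for (-0.15 in MH vs. MWT, -0.02 in CxH vs. MWT and 0.23 between CxWT and MWT), and with column totals as scaling the ratio in MH vs. MWT was 0.69, under the threshold. The difference between the ratios in Cx and M was not tested.

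The ratios of all genes moved with the GC content of their transcripts, and the 7 genes span that range. Spearman's correlation of the log2 ratio with GC content, over the 10701 genes with known GC content and length that reached 100 reads in all 4 libraries, was 0.461 in CxH vs. CxWT, 0.487 in MH vs. MWT, 0.163 in MH vs. CxWT and 0.686 in CxH vs. MWT. Under a shared genotype label it was 0.582 (CxH over MH) and 0.629 (CxWT over MWT). It is given as a description, since the genes of a pair share its libraries. Hr, with 61.6% GC, and Thra, with 59.8%, are at the GC-rich end, Crym (55.1%) and Klf9 (52.5%) lie between, and Slco1c1 (45.1%), Thrb (44.0%) and Dio2 (43.4%) are at the GC-poor end. Correction for GC content and transcript length moved the ratios of Thra to 0.40 in CxH vs. CxWT and 0.64 in MH vs. MWT, both under the threshold. It moved Hr to -0.26 and -0.15, and to -0.02 in CxH vs. MWT. The genes poor in GC moved the other way, Dio2 to 1.24 and 1.20, Thrb to 0.95 and 0.87, and Slco1c1 to 0.56 and 0.79. Crym stood at 1.63 and 1.48 and Klf9 at 0.45 and 0.48. With this correction 3 of the 7 genes were called in CxH vs. CxWT (Crym, Dio2 and Thrb) and 4 in MH vs. MWT (these 3 and Slco1c1). Over all genes the correction left 920 up-regulated and 1219 down-regulated calls in CxH vs. CxWT, in place of 1201 and 1457, and 954 and 1223 in MH vs. MWT, in place of 1556 and 1614.

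**Figure D4:**
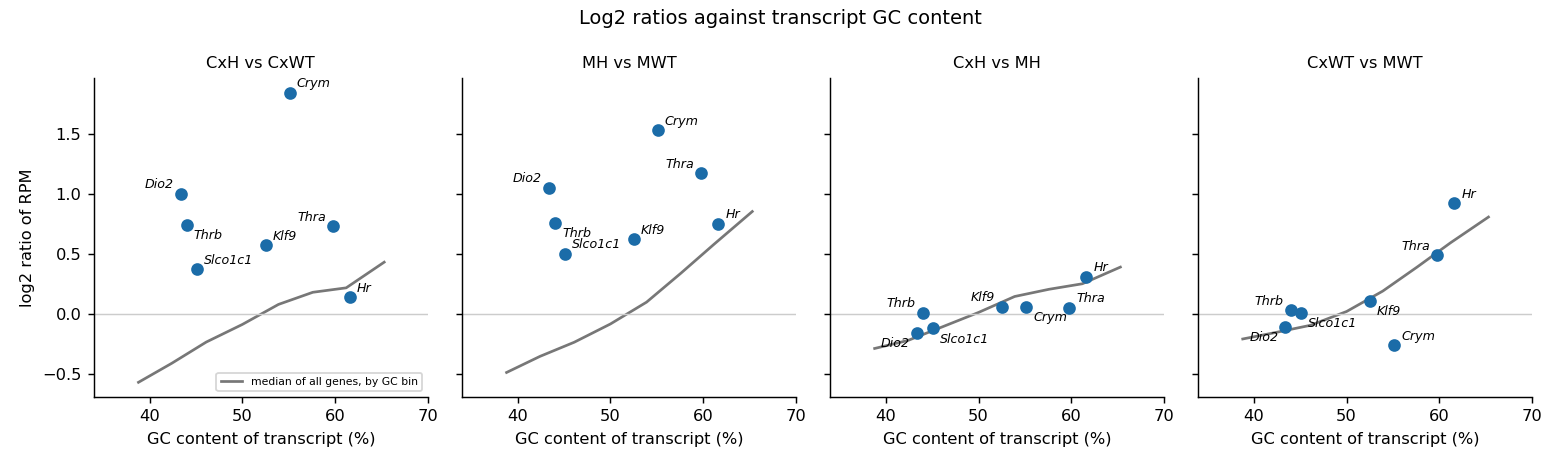
Log2 ratio of RPM against transcript GC content (%) in 4 pairs of libraries, with the 7 genes as points and the median of all genes by GC bin as a line. In CxH vs. CxWT and MH vs. MWT 6 genes lie above the line and Hr lies close to it, while in the other two panels the genes lie near the line, apart from Crym at -0.26 and Hr at 0.92 in CxWT vs. MWT.

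A single fit over the 4 libraries gave a test with 1 residual degree of freedom. The edgeR quasi-likelihood fit had the labelled area and genotype as additive terms, so that their interaction was the residual. Ids, low in CxH and MWT and high in CxWT and MH, split the libraries along that interaction. Differences that went with Ids thus lay in the error of this fit. The p-values of the fit (Benjamini-Hochberg adjusted over 12629 genes) rest on libraries that by their labels came from the same mice. Under the genotype label, 5 of the 7 genes passed an adjusted p of 0.05, all higher in the libraries labelled H, where 21.0% of all genes passed, 11.8% higher in H and 9.23% lower. At an unadjusted p under 0.05 all 7 passed, as did 34.8% of all genes. The log2 difference was 1.76 for Crym (edgeR adjusted p = 7.81e-05), 1.10 for Dio2 (0.000891), 1.03 for Thra (0.00175), 0.83 for Thrb (0.00576) and 0.67 for Klf9 (0.0151). Slco1c1, at 0.51 (edgeR adjusted p = 0.0517), and Hr, at 0.52 (0.0821), did not pass. As Ids and the area markers did not follow the labels, this term sets CxH and MH against CxWT and MWT and is no test of the loss of Ids. Under the area label edgeR called 0 of the 7 genes and 0 of 12629 in all, with 642 genes, or 5.08%, at an unadjusted p under 0.05, and DESeq2 called 1 gene in all, with 266 unadjusted. The area term sets CxH and CxWT against MH and MWT. Neither Ids nor the area markers split the libraries this way, so these counts are no test of brain area. Of the 7 genes, Hr had the lowest p for this label, with a log2 difference of 0.58 (edgeR adjusted p = 0.794, unadjusted 0.0126).

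The wider pathway was read from a list of 59 genes in 9 roles, of which 51 were in the count table and 8 were not analysed here. In CxH vs. CxWT 12 of the 51 were up-regulated and 11 down-regulated, with a median log2 ratio of 0.02, and in MH vs. MWT 15 were up-regulated and 7 down-regulated, with a median of 0.33. Of all genes 20.9% and 25.0% were called in these pairs. Across the comparisons 10 pathway genes were called up in both, 7 down in both and 23 in neither, and 0 had opposite calls. These were 19.6%, 13.7% and 45.1% of the 51 genes, where of all 12700 genes 6.23% were called up in both, 6.46% down in both, 67.3% in neither and 0.543% in opposite directions. Between CxH and MH 0 of the 51 were called higher and 1 lower in CxH, against 2.43% and 1.06% of all genes. Between CxWT and MWT 7 of the 51 were called higher and 1 lower in CxWT, against 5.43% and 2.11% of all genes.

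Among the transporters, 2 of 4 measured genes were up-regulated in CxH vs. CxWT and 3 of 4 in MH vs. MWT. Slc7a8, an amino acid transporter that also carries thyroid hormone, had 1645 reads in CxH and 1598 in MH, against 873 in CxWT and 544 in MWT, with log2 ratios of 0.72 ± 0.060 and 1.19 ± 0.072 in the 2 comparisons. Slc7a5, of the same family, had 0.16 ± 0.043 (not called) and 0.77 ± 0.051 (called). Of the deiodinases and the genes that make selenoproteins, 1 of 3 was called in each comparison. This was Dio3, the inactivating deiodinase, with 102 reads in CxH and 65 in MH, against 21 in CxWT and 9 in MWT. Its log2 ratios were 2.08 ± 0.35 and 2.48 ± 0.51. Dio3 therefore was higher in the same libraries as Dio2. Among the 4 genes of DIO2 turnover, Wsb1, part of a ubiquitin ligase for DIO2, was the only gene called, and it was down-regulated in both comparisons (-1.24 ± 0.047 and -0.84 ± 0.044).

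Ttr, which encodes transthyretin, the T4 carrier of cerebrospinal fluid, was the measured gene of the carriers and had 20682 reads in CxH and 21768 in MH, against 3784 in CxWT and 6390 in MWT. Its log2 ratio was 2.25 ± 0.026 in CxH vs. CxWT and 1.40 ± 0.021 in MH vs. MWT. In brain Ttr is made mainly by the choroid plexus. The 5 measured choroid plexus markers, of 6 listed, summed to 42.4 RPM in CxH and 45.5 in MH, against 23.4 in CxWT and 36.4 in MWT, and 3 and 2 of 5 were called higher. All 5 had reads in each library, and their part in the level of Ttr was not tested.

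Of the receptor partners, Rxrg, the retinoid X receptor known from striatum, was the only 1 of 3 called, with 1.16 ± 0.084 and 0.80 ± 0.097. Coactivators gave 1 down-regulated gene of 7 in CxH vs. CxWT, the acetyltransferase Kat2b (-0.84 ± 0.089), and 1 up-regulated in MH vs. MWT, the acetyltransferase Crebbp (1.14 ± 0.069). Corepressors gave 0 of 6 in CxH vs. CxWT, and 2 of 6, both up-regulated, in MH vs. MWT. Among these was Gps2, a subunit of a nuclear receptor corepressor complex, with -0.12 ± 0.10 in CxH vs. CxWT and 1.0 ± 0.12 in MH vs. MWT.

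Genes known to respond to T3 in brain moved in both directions. Of 18 such genes, 7 were up-regulated and 7 down-regulated in CxH vs. CxWT, and 5 and 4 in MH vs. MWT. Nrgn, the calmodulin-binding protein neurogranin of forebrain neurons, had 20049 reads in CxH and 13972 in MH, against 2468 in CxWT and 1109 in MWT, a log2 ratio of 2.83 ± 0.031 in CxH vs. CxWT and 3.29 ± 0.045 in MH vs. MWT. Rasd2 (Rhes), a GTPase of striatal neurons, had 1.24 ± 0.031 and 0.87 ± 0.035. Cbr2, a carbonyl reductase, had 47 reads in CxH and 29 in MH, against 25 in CxWT and 8 in MWT, with ratios of 0.72 ± 0.36 and 1.49 ± 0.58. Shh, the sonic hedgehog ligand, was down-regulated, with -1.58 ± 0.21 and -1.17 ± 0.22. The other genes called down in CxH vs. CxWT, named after their values were seen, included the myelin genes Mbp, Mag, Mobp and Cnp and the glial potassium channel Kcnj10, of which Mobp and Kcnj10 were also called down in MH vs. MWT. The 7 oligodendrocyte markers, none of them in this list, summed to 366 RPM in CxH and 408 in MH, against 696 in CxWT and 738 in MWT, and 5 of 7 were called lower in each comparison. None was at 0 in any library, and their part in the levels of the myelin genes was not tested.

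Of the central axis, 5 of 8 listed genes were in the table. Trh, the hypothalamic releasing hormone, had 249 reads in CxH and 168 in MH, against 700 in CxWT and 829 in MWT, and was down-regulated in both comparisons, with log2 ratios of -1.69 ± 0.11 and -2.67 ± 0.12. Its receptor Trhr followed (-1.71 ± 0.18 and -0.97 ± 0.14), and Trhde, which degrades the hormone, had 0.60 ± 0.10 and 0.73 ± 0.10. Trh and Trhr thus were higher in the libraries with more midbrain and diencephalon markers, whose part was not tested.

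**Figure D5:**
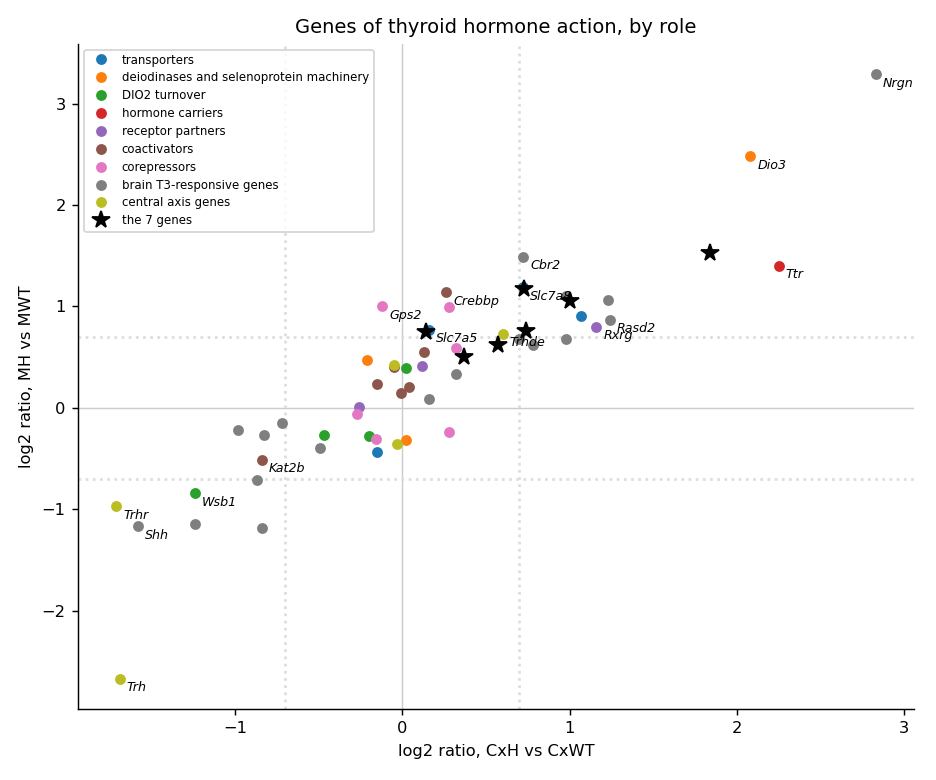
Log2 ratio of RPM in MH vs. MWT against that in CxH vs. CxWT for the 51 measured pathway genes, coloured by role, and for the 7 genes (stars), with dotted lines at 0.7 in size. The stars lie right of and above 0 with Crym at 1.84 and 1.53, Nrgn, Dio3 and Ttr lie farther out, and Trh is lowest at -2.67.

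The remaining marker lists set the levels of other cells beside these genes. The 3 measured hippocampal markers, of 6 listed, summed to 104 RPM in CxH and 105 in MH, against 87.8 in CxWT and 62.8 in MWT, with 1 called lower in CxH vs. CxWT and 2 higher in MH vs. MWT. The 8 microglial markers summed to 508 RPM in CxH and 304 in MH, against 255 in CxWT and 389 in MWT, with 5 called higher in CxH vs. CxWT and 3 lower in MH vs. MWT, an order of libraries that none of the 7 genes had. Of 6 thyroid gland markers, Slc5a5 and Nkx2-1 were in the table, at a sum of 19.5 RPM in CxH and 16.0 in MH, against 26.5 in CxWT and 18.9 in MWT, and 1 of them was called lower in each comparison.

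The patterns of the 7 genes over the libraries were compared as Euclidean distances of centred log2 RPM, a description over 4 libraries that says nothing of function. Among the genes themselves the closest were Thrb and Klf9 (distance 0.17), Slco1c1 and Klf9 (0.22) and Thrb and Dio2 (0.31). The farthest apart were Crym and Hr (1.5). Of the 11010 genes that reached 100 reads in all 4 libraries, Thra was nearest to Med13l (0.020), its fellow pathway gene Slc7a8 (0.038) and Celf3 (0.053). Thrb was nearest to Lmo3 (0.047), Eya1 (0.048) and Incenp (0.072), and Dio2 to Dapp1 (0.055), Fbxw7 (0.079) and C1ql3 (0.090). Slco1c1 lay nearest to Rad52 (0.011), Usp12 (0.027) and Sgtb (0.042), and Klf9 to Afap1l1 (0.039), Bicdl1 (0.055) and Arel1 (0.057). Hr lay nearest to the zinc finger genes Zfp574 (0.043) and Zfp358 (0.080) and to Nfic (0.083). Crym had no neighbour as close, its nearest being Rasl11b (0.11), Zbtb18 (0.12) and Chrdl1 (0.14).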

How the data were processed

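The 4 pooled libraries were sequenced on a SOLiD 3 Plus. The authors aligned the reads to NCBI37/mm9 with PASS 2.10 (best hit, at most 2 mismatches, no gap) and deposited unnormalized counts of reads assigned to a single gene, keeping genes whose coverage exceeded 50%. The gene annotation is not given in the sources used here. The 7 genes and all lists were chosen with earlier results of these data known.

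Counts were divided by the aligned reads stated for each library to give RPM. The floor of 3 reads was 0.0779 RPM in CxH, 0.0803 in MH, 0.0892 in CxWT and 0.104 in MWT. Symbols came from Entrez identifiers through RefSeq (12690 of 12700 matched), and positions, with the GC content and length of each gene's longest coding transcript, from GENCODE vM1 (12225 genes). Pairs of libraries were compared by likelihood ratio on Poisson counts (p-value under 0.05 and log2 ratio of at least 0.7 in size, after the methods of the study), with a count of 0 set to 1 for the ratio, and no p-values are given since no group had a replicate. The area and genotype fit used edgeR 4.0.16 (TMM, genes with at least 10 reads in 2 libraries, Benjamini-Hochberg). The GC and length correction was a polynomial of degree 3 in each over genes that reached 100 reads in all libraries. Named were the 7 genes, Ids, Nr1d1, called pathway genes (at most 4 per role, largest ratios first) and the 3 nearest genes of each. A few genes that this rule names are not reported here, though they entered all counts and medians. Alternatives were other scalings (column totals, TMM, DESeq2 1.42.0 size factors), a filter of 100 reads, a log2 threshold of 1, Benjamini-Hochberg adjustment, edgeR's exact test with the biological coefficient of variation (BCV) set to 0.1 or 0.2, 0.5 added to every count, GC and length correction, and for the fit no filter, aligned reads as library size, DESeq2 and, added after the data were seen, offsets for GC content and length. The steps were tested on simulated data. Python 3.11.15, scipy 1.17.1 and R 4.3.3 were used.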

Additional observations from a re-analysis of the deposited data

Results flagged for a closer look

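Ids, the disrupted gene, moved in opposite directions under its label in the 2 areas, with log2 ratios of -1.39 ± 0.024 in CxH vs. CxWT and 1.24 ± 0.025 in MH vs. MWT, and likewise under the area label, with -1.44 ± 0.023 for CxH over MH and 1.19 ± 0.025 for CxWT over MWT. The pathway genes Trh, Crebbp and Gps2 had opposite signs under the area label. For CxH over MH and for CxWT over MWT, Trh had 0.52 ± 0.14 and -0.46 ± 0.074, Crebbp had -0.14 ± 0.051 and 0.74 ± 0.073, and Gps2 had -0.24 ± 0.097 and 0.89 ± 0.13. With 1 library on each side, none of these differences between comparisons was tested, and the errors cover counting only.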

How the results depend on the processing

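Under column totals, TMM, DESeq2 size factors, 0.5 added to every count and GC and length correction, 191 of 210 ratios of the 7 genes kept their sign, and 150 stayed inside the 95% counting interval of the ratio as reported. Of the 19 that did not keep it, 9 were for CxH over MH and 7 for CxWT over MWT and 3 were of Hr under GC and length correction (the third -0.26 in CxH vs. CxWT). Some of those for CxH over MH were 0 after rounding and not of the other sign. These were Thra by column totals and Slco1c1 and Klf9 under GC and length correction. GC and length correction turned Hr to -0.15 in MH vs. MWT and -0.02 in CxH vs. MWT, and left 0 calls in CxWT vs. MWT, where Hr had been called. A log2 threshold of 1 left 2 calls among the 7 genes in CxH vs. CxWT, 3 in MH vs. MWT, 0 in CxWT vs. MWT and 3 in CxH vs. MWT, and 12 and 13 pathway genes in CxH vs. CxWT and MH vs. MWT in place of 23 and 22. With a BCV of 0.2 the 7 genes gave 2 calls in CxH vs. CxWT (Crym and Dio2) and 3 in MH vs. MWT (these and Thra), where all genes gave 881 up and 983 down in CxH vs. CxWT and 1164 and 1083 in MH vs. MWT. Scaling by TMM turned the split of all calls in CxH vs. CxWT from 1201 up and 1457 down to 1447 and 1135, and in MH vs. MWT from 1556 and 1614 to 1774 and 1386. All calls at a log2 threshold of 1 numbered 691 up and 710 down in CxH vs. CxWT and 869 and 773 in MH vs. MWT. In the fit over 4 libraries, offsets for GC content and length raised the calls among the 7 genes under the genotype label from 5 to 6, while those among all genes fell from 2658 of 12629 to 2110 of 12213, with Slco1c1 at a log2 difference of 0.75 (edgeR adjusted p = 0.00491, with 0.0514 to 0.103 in the other settings), and moved Hr to -0.13 (edgeR adjusted p = 0.656). With column totals as scaling, Hr in MH vs. MWT (0.69) and Thrb in CxH vs. MWT (0.66) were no longer called. No fit with a replicate block was possible because the labels carry no replicate numbers. Leaving out a library would leave the fit no residual degree of freedom. With 466 to 19535 reads per library, counting error was small beside the threshold, and the spread between mice or pools was not measured.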
